A study of Sus scrofa with 6 samples.

Results

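ssc-miR-143-3p, ssc-miR-199a-3p and ssc-miR-199b-3p are 3 of the 326 mature pig microRNAs (miRNAs, short RNAs that hold messenger RNAs in check) measured by small RNA sequencing in denuded oocytes, that is, oocytes stripped of their cumulus cells. They were picked by name, as miRNAs that textbooks place in mesenchymal cells, and all 3 were found in every library and had enough reads to test. The oocytes came from ovaries of prepubertal gilts collected at a slaughterhouse. Oocytes of large follicles (LO, 3 to 6 mm, drawn with a 20-gauge needle on a 10 mL syringe) were compared with oocytes of small follicles (SO, under 2 mm, drawn with a 23-gauge needle on a 5 mL syringe), with 3 libraries per group and no treatment in either. Follicle size, needle and syringe therefore cannot be told apart. The sources used here do not give the number of animals and oocytes behind a library, and no p-value here measures spread beyond these libraries.

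miR-143 is made together with miR-145 from one transcript that is abundant in smooth muscle and other mesenchymal cells, where the pair is known for its part in the contractile state of smooth muscle. miR-199a and miR-199b come from precursors that lie within dynamin genes, and miR-199a and miR-214 share a transcript that is active in mesenchyme during development. In the ovary, theca and stroma lie outside the basement membrane of the follicle, while cumulus and granulosa cells lie inside it with the oocyte.

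The mature sequences are shown because the names of the miR-199 pair rest on a shift of their ends. Capitals mark the seed, bases 2 to 8 from the 5′ end, which sets most of the target choice of a miRNA. All are printed 5′ to 3′ as DNA letters, as deposited.
ssc-miR-143-3p: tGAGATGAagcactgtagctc
ssc-miR-199a-3p: aCAGTAGTctgcacattggtta
ssc-miR-199b-3p: tACAGTAGtctgcacattggtt

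miR-199a-3p and miR-199b-3p share a run of 21 of their 22 bases. The run occupies bases 1 to 21 of miR-199a-3p and bases 2 to 22 of miR-199b-3p, so the names differ by 1 base at each end (2 edits) and the seed is read 1 base apart. No other listed name has the seed of any of the 3 members, and no listed name lies within 2 edits of miR-143-3p, whose nearest name, let-7i, is 8 edits away. A read that carries only the shared run belongs equally to both miR-199 names. The sources used here do not say how such reads were divided, so each miR-199 value is given alone and as a sum.

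The 5p arms of the miR-199 precursors are shown because they separate these precursors where the 3p arms do not, and miR-145-5p because it is the cluster partner of miR-143.
ssc-miR-199a-5p: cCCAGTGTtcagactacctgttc
ssc-miR-199b-5p: cCCAGTGTttagactatctgtt
ssc-miR-145-5p: gTCCAGTTttcccaggaatccctt

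The 2 miR-199 5p arms have the same seed and differ by 3 edits further along. In the RefSeq gene table of the later assembly Sscrofa11.1, used only for names and neighbours because the submitters' notes name Sscrofa10.2, MIR143 and MIR145 are next to each other, MIR214 and MIR199A-1 are next to each other within the range of DNM3, MIR199A-2 lies within the range of DNM2, and MIR199B lies within that of DNM1. miR-199a-3p can therefore come from 2 loci.

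Depth differed between the groups. The library totals behind the deposited scaling ran from 461505 to 1424130 reads in LO and from 1915218 to 2187987 in SO, and the reads of listed miRNAs from 7755 to 42541 in LO and from 44964 to 55230 in SO. Every LO library thus had less depth than every SO library. With 3 reads as the limit that a count of 0 allows, that limit was 6.50 reads per 1000000 (RPM) in LO replicate 2, which had the least depth, and 1.37 RPM in SO replicate 3, which had the most. Intervals and limits cover counting error only.

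The members were minor miRNAs in all 6 libraries. Together they had 549 of 218890 listed miRNA reads, or 0.251%. miR-205, the most abundant miRNA of the table, stood at 8618 ± 2631 RPM on average in LO and at 9839 ± 861 RPM in SO (mean ± SD, n = 3 per group), and over the 6 libraries its mean was 280 times that of miR-143-3p, 446 times that of miR-199a-3p and 513 times that of miR-199b-3p. By reads, miR-143-3p ranked between 47 and 64 in a library, miR-199a-3p between 51 and 79, and miR-199b-3p between 61 and 81. miRNAs of all ranks were compared as reads, since RPM has no length term and the 3 sequences are 21 or 22 bases long.

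miR-143-3p, known for restraining proliferation and for smooth muscle differentiation, had 40, 14 and 43 reads in the LO libraries and 60, 39 and 35 reads in the SO libraries, each in the order of the replicate numbers, as in all lists by library here. The LO libraries thus had 69.5, 30.3 and 30.2 RPM and the SO libraries 31.3, 20.3 and 16.0 RPM. LO replicate 1 stood above all other libraries, and its 95% exact interval (49.6 to 94.6 RPM) did not meet that of any SO library. The other LO libraries lay just under SO replicate 1 and above the rest of SO, so the groups overlapped. The LO mean of 43.3 ± 22.6 RPM was 1.92 times the SO mean of 22.5 ± 7.90 RPM.

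miR-199a-3p, a miRNA of fibroblasts and other stromal cells, had 13, 12 and 31 reads in LO and 58, 25 and 23 reads in SO. Its levels were 22.6, 26.0 and 21.8 RPM in LO, against 30.3, 13.0 and 10.5 RPM in SO. The LO libraries were close together (23.4 ± 2.25 RPM), and all 3 fell inside the range of the SO libraries (17.9 ± 10.8 RPM). SO replicate 1 had the highest value of all 6.

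miR-199b-3p, which carries the same core sequence, had 12, 6 and 23 reads in LO and 52, 32 and 31 in SO. It stood at 20.8, 13.0 and 16.2 RPM in LO, against 27.2, 16.7 and 14.2 in SO, with means of 16.7 ± 3.94 and 19.3 ± 6.89 RPM. SO replicate 1 was again the highest library, and the groups overlapped. The summed miR-199 3p reads were 43.4, 39.0 and 37.9 RPM in LO (40.1 ± 2.91), against 57.4, 29.7 and 24.7 in SO (37.3 ± 17.6).

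**Figure D1:**
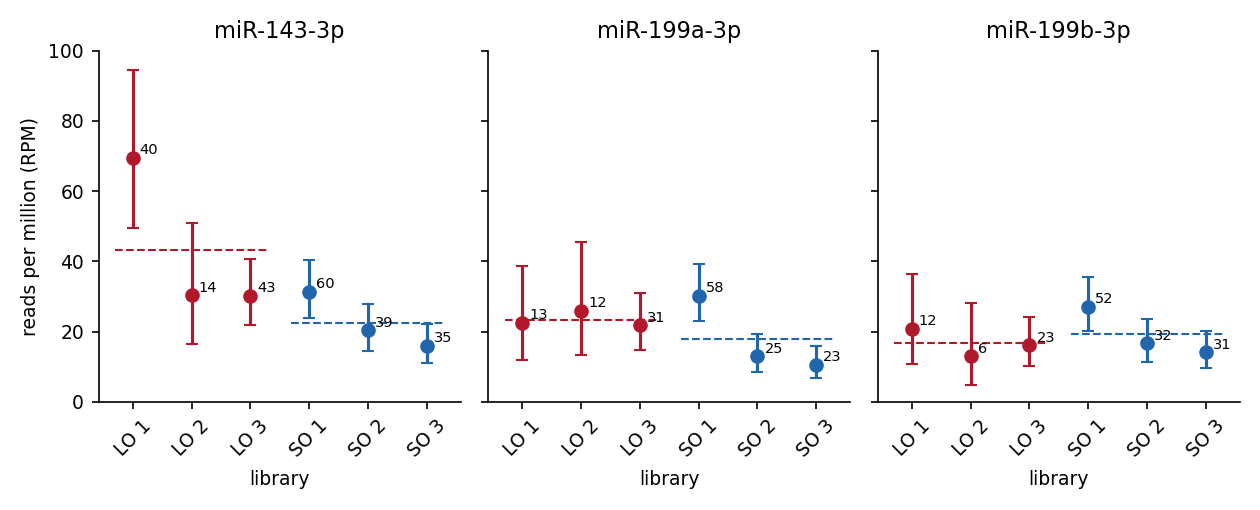
RPM of each member in each library (points, LO red and SO blue), with the 95% exact interval for counting error (bars), the read count beside each point and the group means (dashed lines). miR-143-3p in LO replicate 1, at 69.5 RPM from 40 reads, is the highest point, and SO replicate 1 is the highest library for both miR-199 names.

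The order of the members was the same at its top in every library. miR-143-3p was above miR-199a-3p and above miR-199b-3p in 6 of 6 libraries, but the counting intervals were apart in 1 of them, LO replicate 1. miR-199a-3p was above miR-199b-3p in 4 of 6 libraries, the 3 of LO and SO replicate 1, with overlapping intervals in all 6.

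For some members, replicates of a group differed by more than counting error in their share of listed miRNA reads. Expected counts here followed the listed miRNA reads and not the library totals behind RPM. Chi-square over its degrees of freedom, which is near 1 when libraries differ by counting alone, was 7.51 for miR-143-3p in LO and 2.40 in SO. For miR-199a-3p it was 2.76 in LO and 7.73 in SO, and for miR-199b-3p 0.425 in LO and 2.03 in SO. On RPM, where this measure was not computed, the LO libraries of miR-199a-3p were close together (23.4 ± 2.25). The uneven libraries were thus on different sides for miR-143-3p and for miR-199a-3p.

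The design asks whether these miRNAs differ with follicle size. None of the members passed a false discovery rate (FDR) of 0.05 in LO against SO, and neither did any of the 104 miRNAs with enough reads to test (0%), by limma on log2(RPM + 1). Unadjusted limma p-values under 0.05 were found for 4 of the 104 (let-7c, miR-152, miR-184, miR-210) and for 0 members. On the recovered reads, edgeR called 2 of the 104, miR-184 and miR-210, and gave 13 unadjusted p-values under 0.05. DESeq2 covered a wider set of 242 miRNAs, where it called 0 and gave 9 such p-values. The edgeR and DESeq2 counts are thus not of the same set, and none of these p-values was a member's. In a bulk library, fewer cells of a type and less RNA per cell cannot be told apart, and this holds for every level given here.

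For miR-143-3p the log2 fold change was 0.85 (SE 0.59, 95% interval -0.32 to 2.02, limma FDR 0.780), which was place 7 of 104 from the highest. All 3 LO libraries were above the SO mean. That of miR-199a-3p was 0.51 (SE 0.63, interval -0.73 to 1.74, FDR 0.780), also with 3 of 3 LO libraries above the SO mean. miR-199b-3p had -0.18 (SE 0.64, interval -1.43 to 1.08, FDR 0.936), with 1 of 3 LO libraries above the SO mean. All 3 intervals include 0. They also include differences of more than 1 on the log2 scale, towards LO for miR-143-3p and miR-199a-3p and in both directions for miR-199b-3p. Each SE follows limma's trend with abundance and not the member's own replicates.

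Of the members, 2 were higher and 1 was lower in LO, with a median log2 fold change of 0.51. Over all 104 tested miRNAs 72 were higher and 32 lower, with a median of 0.29, so the split of the members was like that of the whole table. With TMM scaling the median of all tested miRNAs was 0.05, and miR-143-3p, miR-199a-3p and miR-199b-3p had log2 fold changes of 0.61, 0.28 and -0.40. In 4 of the 104 tested miRNAs (3.85%) the RPM ranges of LO and SO did not overlap (miR-184, miR-374a-3p, miR-489 and miR-9-1), and no member was among them.

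**Figure D2:**
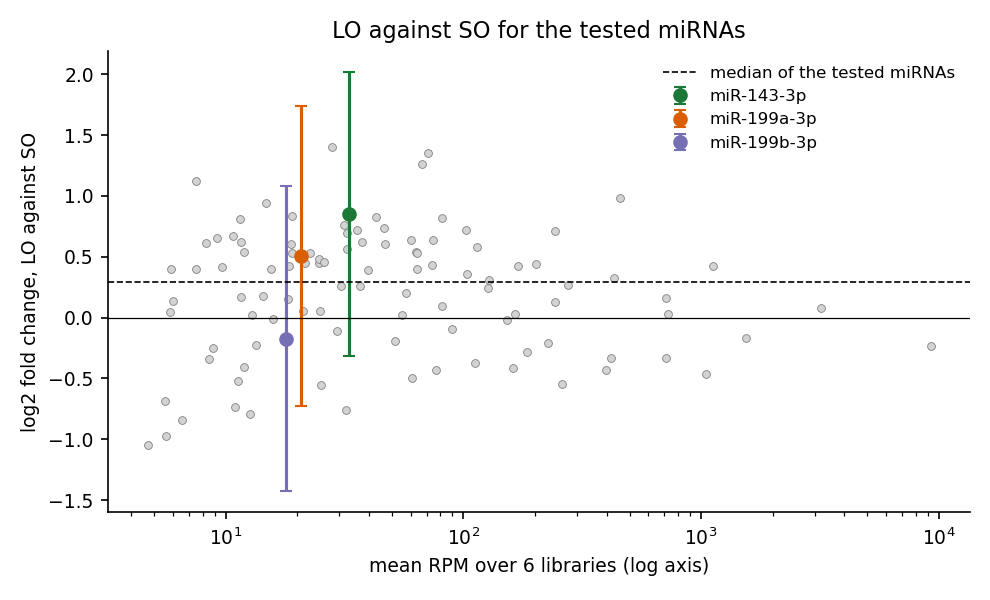
Log2 fold change of LO against SO (vertical axis) against the mean RPM of the 6 libraries (horizontal log axis) for the 104 tested miRNAs (grey), with the members in colour and their 95% limma intervals. All 3 intervals cross 0, and the members sit above, near and below the median of all tested miRNAs (dashed, 0.29).

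Single libraries moved these values. Without LO replicate 1 the log2 fold change of miR-143-3p was 0.46, beside a median of -0.06 over all tested miRNAs. Without LO replicate 2 it was 1.05 with an unadjusted limma p of 0.0393 and an FDR of 0.117, beside a median of 0.62 and 18 called miRNAs, none of them a member. miR-199a-3p went from 0.51 to 0.94 without SO replicate 1 and to 0.22 without SO replicate 3. miR-199b-3p turned to 0.09 without SO replicate 1.

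Set against the median of all tested miRNAs, the members kept more of an order. The settings reuse the same 6 libraries and are not independent of each other. With no filter and in DESeq2 the median was taken over 242 miRNAs. miR-143-3p was above that median in 15 of 15 settings counted for it, the reported fit included, and miR-199b-3p below it in 16 of 16. In 1 of those 16 the miR-199b-3p row held the summed reads of both miR-199 names. miR-199a-3p was above the median in 14 of 16. The exceptions were the fit without LO replicate 2 and the one with the 2 miR-199 names summed, where the sum had a log2 fold change of 0.20 beside a median of 0.27.

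**Figure D3:**
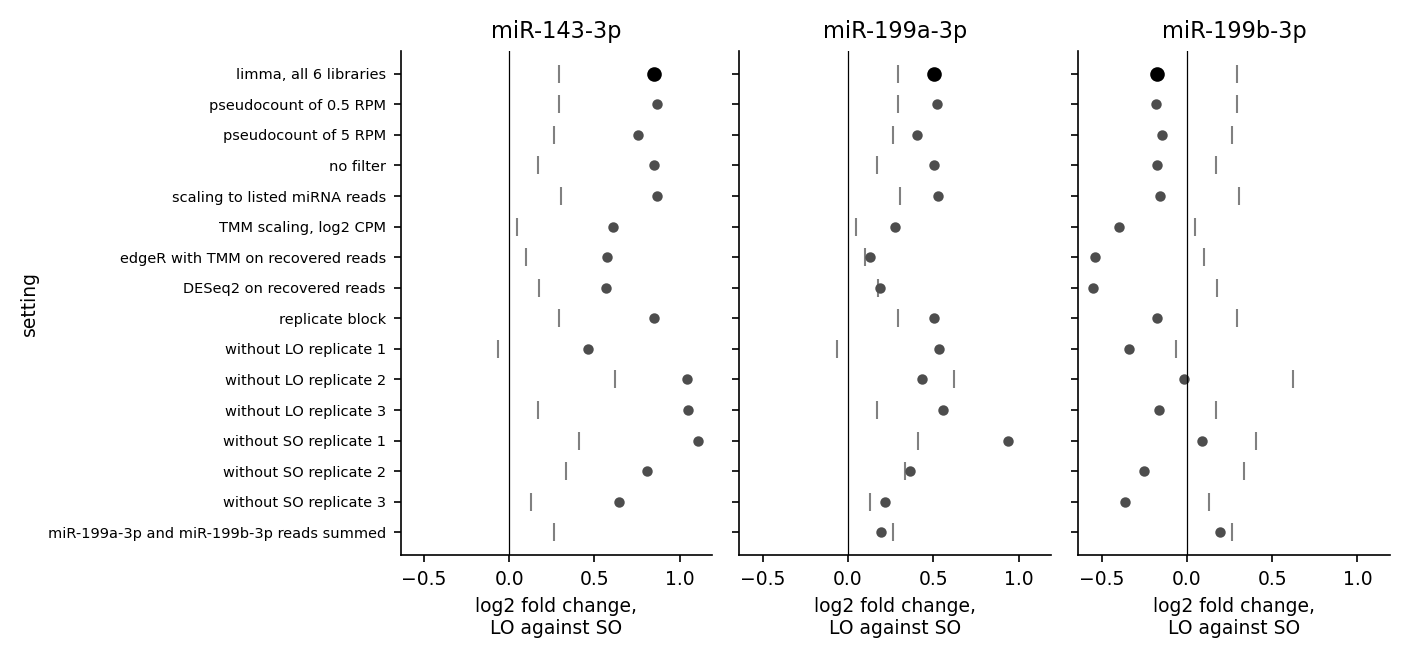
Log2 fold change of LO against SO for each member (points, the reported fit larger) in each setting (rows), with the median of all tested miRNAs in that setting (grey ticks). miR-143-3p lies right of the tick in all 15 settings shown for it and miR-199b-3p left of it in all 16. In the last row both miR-199 names show their summed reads. miR-143-3p has no point there, as its log2 fold change is that of the reported fit.

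Shares of the listed miRNA reads remove differences in the reads outside the listed miRNAs, but they still depend on the other listed miRNAs. miR-143-3p took 0.229%, 0.181% and 0.101% of listed reads in LO, against 0.109%, 0.0867% and 0.0687% in SO. LO replicate 3 lay inside the SO range, and the difference between the means of 0.170% ± 0.0646 and 0.0880% ± 0.0200 passed no threshold (exact two-sided permutation p = 0.2; the smallest possible with 3 against 3 is 0.1). That difference was 0.0822 percentage points, and 0.0528 without LO replicate 1. LO replicate 2, with 14 reads, had an exact Clopper-Pearson interval of 0.0987% to 0.303%.

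miR-199a-3p took 0.0744%, 0.155% and 0.0729% in LO and 0.105%, 0.0556% and 0.0452% in SO. Its highest share was in LO replicate 2, the shallowest library, where 12 reads gave an exact interval of 0.0800% to 0.270%. The shares of miR-199b-3p were the most even, 0.0687%, 0.0774% and 0.0541% in LO and 0.0942%, 0.0712% and 0.0609% in SO. LO minus SO was 0.0321 percentage points for miR-199a-3p and -0.00868 for miR-199b-3p (exact permutation p = 0.5 for each). Without LO replicate 2 the difference for miR-199a-3p fell to 0.00506 (exact permutation p = 1.0, with 2 libraries against 3). It was 0.0503 without SO replicate 1 and 0.0204 without SO replicate 3. Without the 3 most abundant miRNAs in the total, LO minus SO was 0.149 percentage points for miR-143-3p, 0.0594 for miR-199a-3p and -0.0352 for miR-199b-3p. The exact permutation p was 0.2, 0.5 and 0.3 in that order.

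The 3 members together took 0.372%, 0.413% and 0.228% of listed reads in LO and 0.308%, 0.214% and 0.175% in SO. LO replicates 1 and 2 were above every SO library and LO replicate 3 was between SO replicates 1 and 2, so the groups overlapped.

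LO replicate 2 held few listed miRNA reads for its total (1.68%, against 2.33% to 3.03% in the other 5 libraries). In it the median tested miRNA was 0.63 below its own mean over the 6 libraries on the log2(RPM + 1) scale. miR-143-3p and miR-199a-3p stood apart from that median: they were 0.04 and 0.40 above their own means, and only 9 and 3 of the 104 tested miRNAs had a higher deviation there. miR-199b-3p was 0.40 below its mean. In LO replicate 1 the median tested miRNA was 0.75 above its mean, and miR-143-3p was 1.21 above, with 24 tested miRNAs higher, while miR-199a-3p and miR-199b-3p were 0.20 and 0.24 above, with 73 and 69 tested miRNAs higher. Much of the table was thus high in that library together with miR-143-3p, and the miR-199 pair less so.

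Ratios between members inside one library do not depend on the scaling. miR-143-3p had 1.60, 0.778 and 0.796 reads per summed miR-199 3p read in LO, against 0.545, 0.684 and 0.648 in SO. Every LO library was above every SO library. The mean log2 ratio was 0.67 higher in LO (exact two-sided permutation p = 0.1, the smallest possible with 3 against 3, and 0.3 when adjusted over 3 ratios). Among 102 tested miRNAs set against the same miR-199 sum, 2 (1.96%), miR-184 and miR-143-3p, had every LO library above every SO library, a count added after the values were seen.

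The separation is narrow for the reads behind it. The ratio of LO replicate 2 rests on 14 and 18 reads, and its exact interval of 0.358 to 1.66 covers the ratios of all 3 SO libraries. Without LO replicate 1 the difference in mean log2 ratio fell from 0.67 to 0.34 (exact permutation p = 0.2, with 2 libraries against 3).

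miR-199a-3p had 1.08, 2.00 and 1.35 reads per read of miR-199b-3p in LO and 1.12, 0.781 and 0.742 in SO. LO replicate 1 was just below SO replicate 1, so the groups overlapped. The difference in mean log2 ratio was 0.70 (exact permutation p = 0.2). LO replicate 2, with 12 and 6 reads, had an exact interval of 0.695 to 6.49. Over all libraries miR-199a-3p had 162 reads and miR-199b-3p 156, a miR-199a share of 50.9% (exact interval 45.3 to 56.6).

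**Figure D4:**
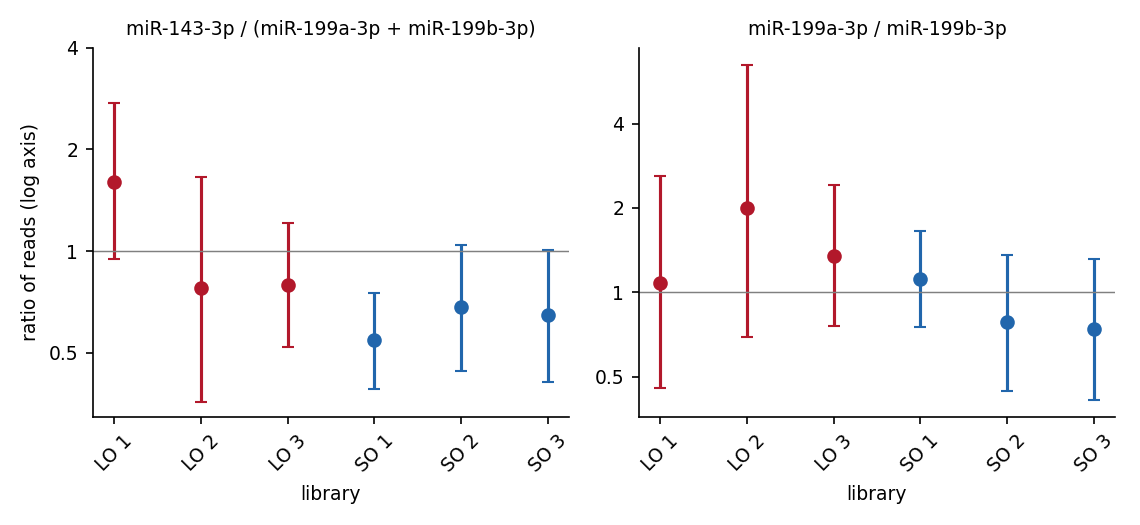
Ratio of reads in each library (log axes; LO red, SO blue) with exact 95% intervals for counting error, on the left for miR-143-3p to the summed miR-199 3p reads and on the right for miR-199a-3p to miR-199b-3p; the grey line marks 1. The left ratio is 0.778 to 1.60 in LO and 0.545 to 0.684 in SO, while on the right LO replicate 1 and SO replicate 1 are nearly level.

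Both arms of the same precursors and their cluster partners made up a fixed list of 9 names, of which the members are 3 and hold 88.8% of the 618 reads. None of the other 6 names had enough reads to test. miR-145-5p, the partner made with miR-143 and a regulator of smooth muscle genes, had 5, 2 and 5 reads in LO and 9, 7 and 5 in SO, which is 5.51 ± 2.78 and 3.54 ± 1.21 RPM. miR-143-3p had 8, 7 and 8.60 reads per miR-145-5p read in LO, against 6.67, 5.57 and 7 in SO. This ratio, chosen after the values were seen, ran from 5.57 to 8.60 over the 6 libraries and rests on 2 to 9 reads of miR-145-5p, with an exact interval of 1.61 to 63.5 in LO replicate 2. The groups met at 7 (LO minus SO 0.21 on the log2 scale, exact permutation p = 0.3, and 0.12 to 0.35 without 1 library, lowest without SO replicate 2 and highest without LO replicate 2).

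The other arm of each member was scarce. miR-143-5p had 2 reads in all 6 libraries, so the 3p arm held 99.1% (exact interval 96.9 to 99.9) of 233 miR-143 reads. The 3p arm held 95.9% (91.7 to 98.3) of 169 miR-199a reads and 87.2% (81.3 to 91.7) of 179 miR-199b reads. miR-145 had the opposite preference, with 89.2% (74.6 to 97.0) of 37 reads on its 5p arm.

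The 5p arms, whose sequences tell the miR-199 precursors apart, were not split as the 3p names were. miR-199a-5p had 7 reads and miR-199b-5p had 23, a miR-199a share of 23.3% (exact interval 9.93 to 42.3), below the interval of 45.3 to 56.6 for the 3p names. miR-199a-5p had 3, 0 and 1 reads in LO and 2, 1 and 0 in SO, and miR-199b-5p had 3, 0 and 4 in LO and 9, 5 and 2 in SO.

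miR-214, the partner of miR-199a in one of its transcripts, had 0 of 218890 listed reads, which allows a share of up to 0.00137%. miR-145-3p had 4 reads, all in SO replicates 1 and 3, and miR-143-5p had its 2 in the same libraries. The LO libraries held 0 reads of both, at lower depth.

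**Figure D5:**
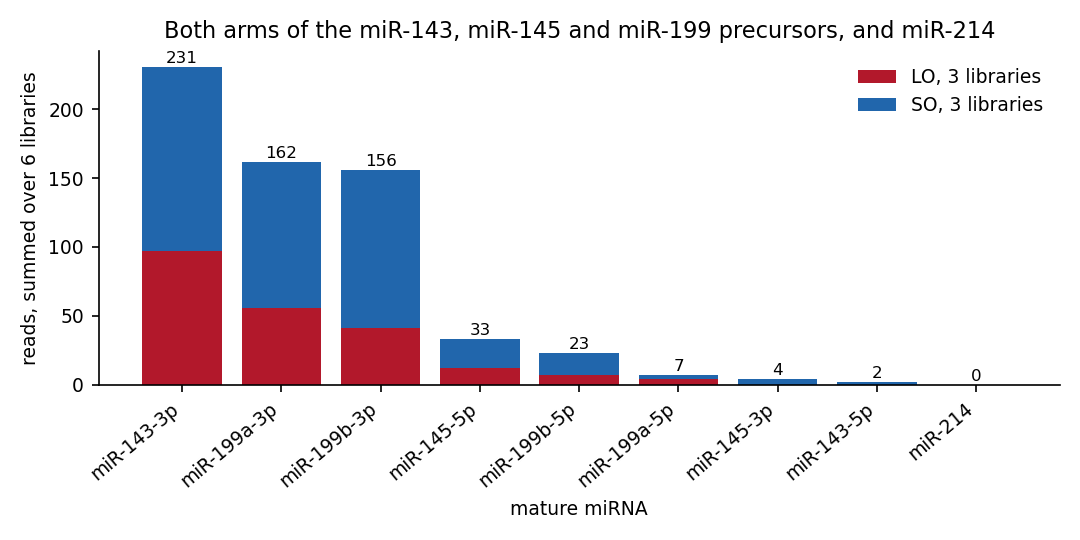
Reads summed over 6 libraries for the 9 names of the list, with LO below (red) and SO above (blue) in each bar and the total on top. The members had 231, 162 and 156 reads, the other names 33 or fewer, and miR-214 had 0.

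Co-variation over the libraries was positive for each pair of members and passed no test. On log2(RPM + 1) over 6 libraries, miR-143-3p and miR-199a-3p had Pearson's r = 0.66 (exact permutation p = 0.103, adjusted over 3 pairs 0.308) and Spearman's rho = 0.83 (exact p = 0.0583, adjusted 0.175). Without LO replicate 1 and SO replicate 3, the libraries farthest from the median of miR-143-3p, r was 0.95 over 4 libraries. miR-143-3p and miR-199b-3p had r = 0.46 (exact permutation p = 0.386, adjusted 0.386) and rho = 0.54 (exact p = 0.297, adjusted 0.446), and r fell to 0.19 without the same libraries. For the miR-199 pair r was 0.50 (exact permutation p = 0.311, adjusted 0.386) and rho 0.37 (exact p = 0.497, adjusted 0.497), with r = 0.47 without SO replicates 2 and 3.

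The libraries share their scaling, and pairs of tested miRNAs often rose and fell together on it. Over the 103 other tested miRNAs the median r with miR-143-3p was 0.61, and miR-199a-3p was in place 42 and miR-199b-3p in place 65 of that order. miR-199a-3p was less tied to the rest of the table (median r 0.21), and there miR-143-3p was in place 9 and miR-199b-3p in place 20. For miR-199b-3p (median r 0.51) miR-199a-3p was in place 54 and miR-143-3p in place 58, both below that median. With the group means taken out, r was 0.51 for miR-143-3p and miR-199a-3p, 0.88 for miR-143-3p and miR-199b-3p and 0.74 for the miR-199 pair. These values were not tested, and no median over the table was computed to set beside them. On shares of listed reads the 3 correlations were 0.64, 0.27 and 0.58 in the same order of pairs.

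The tested miRNAs whose levels followed miR-143-3p most closely were miR-29a (r = 0.96), miR-29c (0.95) and miR-184 (0.93), over 6 libraries and as a description. miR-29a, which targets collagens, had 95.5, 36.8 and 47.0 RPM in LO, against 38.1, 31.8 and 28.8 in SO, with LO replicate 1 far above the rest as for miR-143-3p. For miR-199a-3p they were miR-340 (0.83), miR-342 (0.82) and the endothelial miR-126-3p (0.82). miR-126-3p had 12.2, 6.50 and 6.32 RPM in LO, against 11.5, 5.73 and 2.74 in SO. It had 3 to 22 reads per library and miR-340 had 3 to 17, so both of these correlations rest on small counts. For miR-199b-3p they were miR-190a (0.87), miR-101 (0.86) and miR-424-5p (0.86), each with its highest value in SO replicate 1. When shares replaced RPM, 2 of the 3 names stayed for miR-143-3p, 2 of 3 for miR-199a-3p and 0 of 3 for miR-199b-3p.

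Marker miRNAs of other cells give the setting of these levels. The fixed list of theca, stroma and smooth muscle is the same 9 names, at 0.252% to 0.438% of listed reads in LO and 0.194% to 0.349% in SO, with miR-214 at 0. Granulosa and cumulus markers were uneven: miR-21, miR-31 and miR-202-5p had 1992, 1817 and 1276 reads over the 6 libraries and miR-202-3p had 61, while miR-132 had 10, miR-212 had 2, and miR-224 and miR-383 had 1 each. The list took 3.82%, 1.93% and 2.56% in LO and from 1.68% to 2.55% in SO. LO replicate 1, the highest library for miR-143-3p, was highest for this list too, and SO replicate 3 was lowest for both. LO replicate 2 broke this match. Its miR-143-3p share of 0.181% was below that of LO replicate 1 only, while its 1.93% for the list was above SO replicate 3 only. miR-202-5p, in that list, is also held by oocytes.

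Cartilage and connective tissue markers (3 of 4 names with reads, almost all miR-140-3p, with miR-140-5p at 0) took 0.0774% to 0.321% in LO and 0.0905% to 0.111% in SO, with the highest share again in LO replicate 1. Endothelial markers, both arms of miR-126, took 0.0306% to 0.0645% in LO and 0.0137% to 0.0489% in SO. Leukocyte markers (4 of 5 names with reads) took 0.0235% to 0.0630% in LO and 0.0157% to 0.203% in SO. The top of that range was SO replicate 1, which on RPM was the highest library for both miR-199 names (by share it was the highest for miR-199b-3p, and LO replicate 2 for miR-199a-3p). In SO replicate 1 miR-142-3p, a miRNA of blood cells, had 80 reads against 1 to 3 in each other library. miR-142-5p and miR-150 also had their most reads there (22 and 5). miR-155-5p did not, with 8, 0 and 6 reads in LO and 5, 9 and 4 in SO. miR-223, also in the fixed list, is not a listed name. Erythroid markers took 0.0141% to 0.0258% in LO and 0.00667% to 0.0157% in SO, from 30 reads of 3 names in all 6 libraries. The top of the LO range, in LO replicate 2, was 2 reads of miR-451, under the 3-read limit of 0.0387% there. Of 8 skeletal and cardiac muscle names 5 had reads, led by miR-499-5p, with miR-133a-5p, miR-133b and miR-208b at 0. That list took 0.103% to 0.155% in LO and 0.0645% to 0.118% in SO. The liver miRNA miR-122 took 0.0258% to 0.0658% in LO and 0.00890% to 0.0903% in SO. Of the 5 epithelial miRNAs in the fixed list only miR-429 is a listed name, with 1 read, so the others could not be seen. The ranges of LO and SO overlapped for every list, and the part of other cells in the member levels was not tested. No list of miRNAs that define the oocyte was fixed, so the cell label was not checked in that direction.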

How the data were processed

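Small RNA libraries (QIAseq miRNA Library Kit on mirVana RNA, NextSeq500, per the labels' protocols) came from 3 LO and 3 SO samples, grouped by title. The deposited tables give 1 value per mature miRNA, headed TPM. Every value above 0 was a whole multiple of 1 step per library (100% within 0.01 read) whatever the length, so the deposited values were read as RPM, reads per 1000000 of a total set by the authors. Reads were recovered from the steps; any use of the kit's molecular identifiers is not stated in those sources. Tools named in the submitters' processing notes, with no role, are cutadapt, bcl2fastq, edgeR and Bowtie2 2.2.2, beside the build Sscrofa10.2.

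LO against SO was tested by limma 3.58.1 (R 4.3.3, intensity trend) on log2(RPM + 1), with Benjamini-Hochberg adjustment over the 104 miRNAs that passed edgeR's filterByExpr. The code was tested on simulated data. Those data held no shifts of whole libraries like the ones seen here, so that test covers the code only. Alternatives were edgeR 4.0.16 and DESeq2 1.42.0 on recovered reads, other scalings, pseudocounts and filters, summed miR-199 names, each library left out and a replicate block. Shares and ratios (0.5 reads added) used exact two-sided permutation. The members, marker lists and tests were chosen with earlier results of these data known. The rule for named miRNAs took the members, the 9-name list, the 3 names most correlated with each member, near sequences, the most abundant miRNA and the leading marker of each list; all other names, given for small counts, low p-values, ranges apart, or marker reads, were chosen after their values were seen.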

Additional observations from a re-analysis of the deposited data

How the results depend on the processing

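No member passed FDR 0.05 in any alternative. miR-143-3p (14 alternatives, log2 fold change 0.46 to 1.11, FDR 0.117 to 0.992) and miR-199a-3p (15 alternatives, 0.13 to 0.94) kept their direction, and miR-199b-3p (-0.55 to 0.20) did not. It was 0.20 with the miR-199 names summed, where the row holds both names' reads, and from -0.36 to 0.085 over fits without 1 library; its share difference ran from -0.0159 to 0.000702 percentage points over the same omissions, positive without SO replicate 1 in both cases. The cause was not tested. The number of called miRNAs was 0 by limma, 2 by edgeR with TMM, and 0 to 18 without 1 library, the 18 without LO replicate 2. A replicate block also gave 0 and changed no call, and under it the value for miR-143-3p was 0.85 (FDR 0.853). Same-numbered libraries did not deviate together (r of deviations -0.34, -0.22 and 0.08). With 3 libraries per group, these values cannot decide whether same-numbered samples were collected together. For the ratio of miR-143-3p to miR-199, LO minus SO in the mean log2 ratio ran from 0.34 to 0.85 over the alternatives. For miR-199a-3p to miR-199b-3p this difference ran from 0.47 to 0.89, so both ratios were higher in LO in each alternative. Each member had 6 to 60 reads per library. For some members, replicates also differed beyond counting error in their share of listed reads. The part of low counts and of that spread in the width of the limma intervals was not tested.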
